A study of Mus musculus with 12 samples.

Results

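The pyruvate dehydrogenase kinases (Pdk1, Pdk2, Pdk3 and Pdk4) and the catalytic subunits of the pyruvate dehydrogenase phosphatase (Pdp1 and Pdp2) were followed in kidney cortex of TRACK mice. The 6 genes were taken by their symbols, matched through the Ensembl identifiers of the deposited count table, which lists 37681 genes. All 6 members were found and all 6 passed the filter on low counts, among 19399 genes tested. RNA came from a thin outer slice of kidney cortex of male C57BL/6 mice, 18 months old and untreated. The 3 TG+ mice (43-29, 43-49 and 43-75) carry the TRACK transgene (gamma-HIF1alphaM3), a mutant HIF1α that is constitutively active and expressed in the proximal tubules, as a model of clear cell renal cell carcinoma, and the 3 TG- mice (43-26, 43-50 and 43-76) are transgene-negative littermates. Both kidneys of each mouse were sequenced as separate libraries, 12 in all, and were summed so that the mouse is the replicate.

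Pyruvate dehydrogenase is the mitochondrial complex that turns pyruvate into acetyl-CoA and so links glycolysis to the TCA cycle. The kinases phosphorylate its E1α subunit and switch the complex off, and the phosphatases remove the phosphate and switch it on again. The kinases differ in where and when they are made: Pdk1 is a classical target of HIF1, Pdk2 is the broadly expressed form, and Pdk4 is induced by fasting and by fatty acids through PPAR and FOXO factors. Pdp1 is the calcium-stimulated phosphatase and Pdp2 the form lowered in starvation.

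The libraries held 21888584 to 33704850 counts and the mice 48052131 to 60506785. Levels are given in CPM, the counts brought to a common library total with TMM factors, and between genes as CPM per kilobase of exon. Fold changes and p-values, adjusted by the Benjamini-Hochberg method over all genes tested, are from edgeR's quasi-likelihood test. Standard errors (SE) and confidence intervals were derived from the F statistic of that test. A gene was called where its adjusted p was below 0.01 and it was more than 2-fold higher or lower, the threshold of the study. Of all genes tested, 3.77% were called higher in TG+ and 0.211% lower. At an adjusted p below 0.05 with no minimum fold change, 15.4% were higher and 10.9% lower. Among the 6 members, 1 was called higher (Pdk1) and 0 lower. At the second threshold 3 were higher (Pdk1, Pdk3 and Pdp1) and 2 lower (Pdk2 and Pdp2), and Pdk4 passed neither. Pdk1 was the only member whose estimated fold change by edgeR exceeded 2 in either direction. DESeq2 called the same counts, 1 higher and 0 lower, and at an unadjusted p below 0.05 edgeR had 2 members lower.

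Pdk1, the kinase isoform under HIF1 control, had the largest change of the family. Its level was 37.2, 39.9 and 41.3 CPM in TG- mice 43-26, 43-50 and 43-76, and 334, 277 and 300 CPM in TG+ mice 43-29, 43-49 and 43-75. The groups were far apart, and every TG+ mouse lay above every TG- mouse. The means were 304 ± 28.5 CPM in TG+ and 39.5 ± 2.05 CPM in TG- (SD, n = 3 mice each), a 7.70-fold increase (log2 fold change 2.94, SE 0.08, 95% confidence interval 2.75 to 3.14, adjusted p = 2.4e-06 by edgeR). Among all genes tested it had the 6th smallest p-value, and among the 15710 genes with a mean of at least 1 CPM in both groups it had the 35th largest fold change. The 2 kidneys of a mouse differed by at most 0.13 on the log2 scale. With 3 mice against 3 an exact two-sided permutation test over the 20 assignments cannot go below p = 0.1, and Pdk1, like every member whose groups do not overlap, reached that value.

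Pdk3, the kinase isoform most active in vitro, also rose, by much less. It stood at 40.8, 46.5 and 43.4 CPM in the TG- mice and at 65.5, 61.7 and 60.6 CPM in the TG+ mice, in the same order of mice. The groups did not overlap. The fold change was 1.43 (log2 fold change 0.52, SE 0.06, 95% confidence interval 0.37 to 0.67, adjusted p = 0.0013 by edgeR), below the 2-fold threshold.

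Pdk2, the main kinase transcript of normal cortex, fell. Its level was 299, 316 and 321 CPM in the TG- mice and 243, 238 and 252 CPM in the TG+ mice. The lowest TG- mouse lay above the highest TG+ mouse. The fold change was 0.785 (log2 fold change -0.35, SE 0.05, 95% confidence interval -0.47 to -0.22, adjusted p = 0.0034 by edgeR). The gene overlaps the tested gene Gm11513 on the opposite strand, which was at 0.811 CPM or less in the TG+ mice and at 1.35 CPM or less in the TG- mice. Whether the counting used strand is not given in the sources used here.

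Pdk4, the kinase of the fasted state, did not separate the groups. It stood at 15.5, 132 and 27.6 CPM in TG- mice 43-26, 43-50 and 43-76, and at 22.8, 30.5 and 56.2 CPM in TG+ mice 43-29, 43-49 and 43-75. A single TG- mouse, 43-50, lay above all the others, and both of its kidneys did so, at 134 and 129 CPM. Over the 3 TG- mice the range was 3.09 on the log2 scale, the 5th widest among 10170 genes with a mean of at least 10 CPM, whose median range was 0.14. The log2 fold change was -0.68 (SE 0.73, 95% confidence interval -2.37 to 1.00, adjusted p = 0.54 by edgeR). Without mouse 43-50 it was 0.76 (SE 0.40, adjusted p = 0.24 by edgeR), so that this mouse alone set the sign. A change of Pdk4 between the groups was not detectable with these mice, and the interval holds a 2-fold fall, no change and a 2-fold rise.

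Markers of fat and muscle, tissues in which Pdk4 is abundant, were low. The 5 adipocyte markers (Adipoq, Plin1, Cidec, Lep and Ucp1) summed to 0.0614 to 5.36 CPM in the TG- mice, the highest in mouse 43-50, and to 0.142 to 20.9 CPM in the TG+ mice. Adipoq, the adipokine that defines adipocytes, was at 0 CPM in TG- mice 43-26 and 43-76 and in TG+ mouse 43-29, at 1.73 CPM in 43-50, at 6.52 CPM in 43-49 and at 4.76 CPM in 43-75. Myh1, a myosin of skeletal muscle, was at 0 CPM in 43-29, 43-50 and 43-76. The 7 muscle markers summed to 2.87 to 6.76 CPM in TG- and 4.36 to 4.57 CPM in TG+. Mouse 43-49 had the highest adipocyte sum, 20.9 CPM, with Pdk4 at 30.5 CPM, and mouse 43-75 had a sum of 15.3 CPM with the highest Pdk4 of the TG+ mice, 56.2 CPM. The part of these tissues in the Pdk4 level was not tested.

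Pdp2, the main phosphatase transcript of the cortex, fell. It stood at 113, 106 and 128 CPM in the TG- mice and at 76.8, 67.8 and 78.4 CPM in the TG+ mice. The groups did not overlap. The fold change was 0.642 (log2 fold change -0.64, SE 0.09, 95% confidence interval -0.84 to -0.44, adjusted p = 0.0019 by edgeR), short of a halving.

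Pdp1, a minor transcript here, rose. It stood at 4.80, 4.82 and 4.79 CPM in the TG- mice, from 234 to 275 reads, and at 6.45, 6.03 and 7.13 CPM in the TG+ mice. The TG- mice were nearly equal and the groups did not overlap, although the 2 kidneys of a mouse differed by up to 0.38 on the log2 scale. The fold change was 1.36 (log2 fold change 0.44, SE 0.10, 95% confidence interval 0.22 to 0.67, adjusted p = 0.013 by edgeR). The adjusted p by edgeR was 0.055 without TG+ mouse 43-75, 0.052 without TG- mouse 43-76 and 0.10 with the first kidneys alone, so its place below 0.05 rested on these samples.

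**Figure D1:**
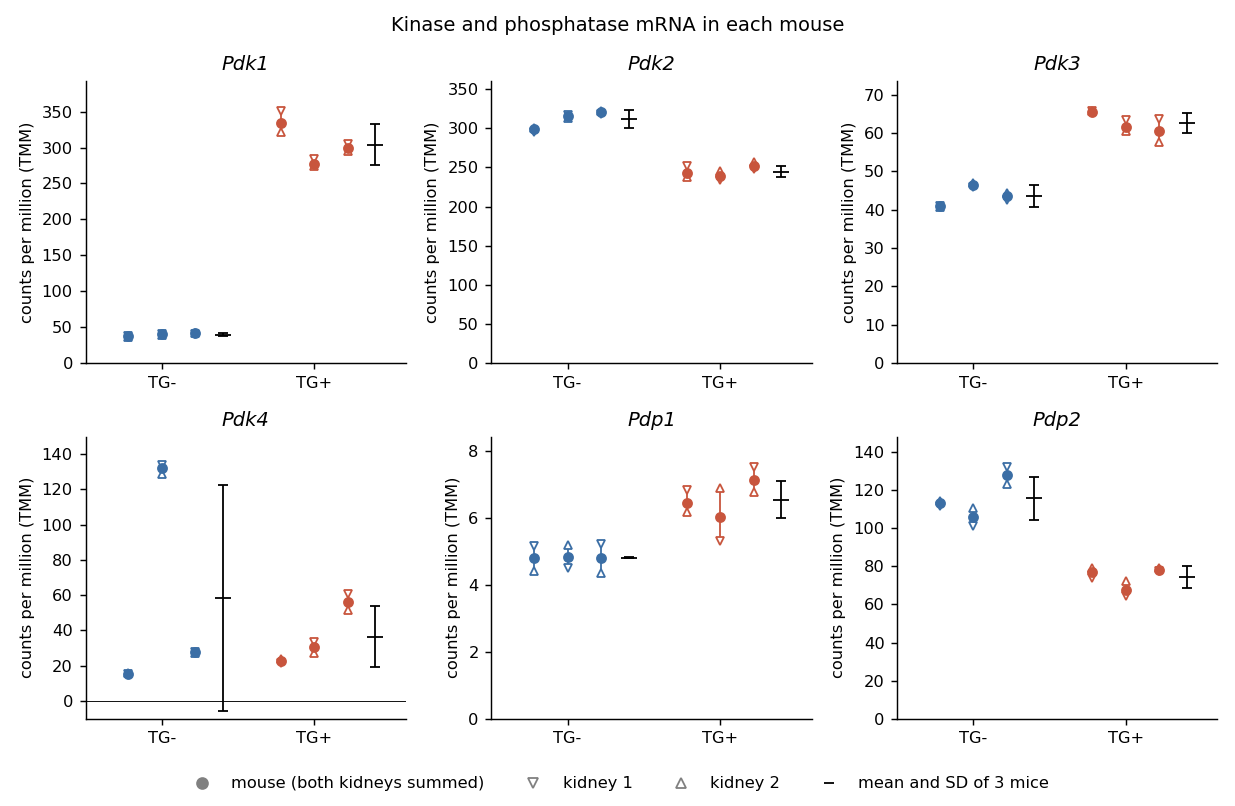
Level of each kinase and phosphatase mRNA in CPM (vertical axes, each its own linear scale) in the 3 TG- and 3 TG+ mice, ordered by mouse number within a group. Filled circles are mice, open triangles their 2 kidneys, and bars the mean ± SD of 3 mice. Pdk1 rose from about 39.5 to 304 CPM, Pdk2 and Pdp2 were lower and Pdk3 and Pdp1 higher in every TG+ mouse, and the TG- bar of Pdk4 is set by mouse 43-50 at 132 CPM.

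Within each enzyme class the members moved in opposite directions: Pdk1 and Pdk3 up against Pdk2 down, and Pdp1 up against Pdp2 down.

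The windows around the start sites of the 4 kinases or phosphatases that changed and that have an entry in RefSeq's GRCm38.p6 annotation are printed here because the transgene encodes a factor that binds the core letters ACGTG and GCGTG. Each runs 5′ to 3′ on the strand of the gene, from 250 bases before the start to 50 after it, and capitals mark the 2 motifs on either strand.
Pdk1 (chr2:71872974-71873273, plus strand): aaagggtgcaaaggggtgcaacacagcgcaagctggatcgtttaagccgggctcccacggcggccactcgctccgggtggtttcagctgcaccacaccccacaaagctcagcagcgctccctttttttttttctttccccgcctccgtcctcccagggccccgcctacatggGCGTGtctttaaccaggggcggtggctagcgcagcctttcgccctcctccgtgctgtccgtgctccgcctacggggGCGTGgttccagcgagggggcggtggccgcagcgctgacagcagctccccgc
Pdk3 (chrX:93832101-93832400, minus strand): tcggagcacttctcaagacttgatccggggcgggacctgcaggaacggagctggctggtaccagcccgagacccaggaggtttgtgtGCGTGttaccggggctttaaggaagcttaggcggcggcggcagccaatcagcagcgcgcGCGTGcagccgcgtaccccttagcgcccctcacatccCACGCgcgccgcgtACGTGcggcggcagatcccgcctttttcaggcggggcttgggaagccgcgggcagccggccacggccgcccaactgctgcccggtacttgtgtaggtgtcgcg
Pdk2 (chr11:95041322-95041621, minus strand): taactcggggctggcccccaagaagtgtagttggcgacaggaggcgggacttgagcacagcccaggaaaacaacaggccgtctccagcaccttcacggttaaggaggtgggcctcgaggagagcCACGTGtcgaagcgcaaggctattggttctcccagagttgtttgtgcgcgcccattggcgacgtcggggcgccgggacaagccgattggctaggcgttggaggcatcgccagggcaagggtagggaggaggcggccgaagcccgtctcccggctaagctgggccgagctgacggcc
Pdp2 (chr8:104591222-104591521, plus strand): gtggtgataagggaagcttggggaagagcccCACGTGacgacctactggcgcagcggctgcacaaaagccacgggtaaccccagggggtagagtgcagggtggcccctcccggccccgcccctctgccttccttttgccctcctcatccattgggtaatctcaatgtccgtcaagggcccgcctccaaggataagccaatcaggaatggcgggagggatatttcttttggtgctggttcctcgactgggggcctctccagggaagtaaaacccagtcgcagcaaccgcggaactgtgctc
The Pdk1 window held GCGTG at 2 places, beginning 78 and 2 bases before the start. The Pdk3 window held 4 matches, and the Pdk2 and Pdp2 windows a single CACGTG each, which reads as ACGTG on both strands and so counts as 2 matches. Of all 32851 windows of the same length, 43.8% held at least 1 match, 20.6% at least 2 and 3.86% at least 4. The letters were present in the windows of genes that rose and of genes that fell, and a match is a description of the sequence, not a site.

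Pdk1 (ENSMUSG00000006494) lies on chromosome 2 from 71873224 to 71903858. Pdk2 (ENSMUSG00000038967) lies on chromosome 11 from 95026258 to 95041354, Pdk3 (ENSMUSG00000035232) on chromosome X from 93764607 to 93832201, Pdk4 (ENSMUSG00000019577) on chromosome 6 from 5483351 to 5496309, Pdp1 (ENSMUSG00000049225) on chromosome 4 from 11958184 to 11966452 and Pdp2 (ENSMUSG00000048371) on chromosome 8 from 104591451 to 104599026. These positions are those of GRCm38 (GENCODE), found by gene identifier, since the count table itself gives none. The members are not neighbours of each other: each is on a chromosome of its own.

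The make-up of the kinase pool was compared next, on the scale of CPM per kilobase of exon, which sets levels of different genes side by side. In TG- cortex Pdk2 was the highest kinase at 98.6 ± 3.70 CPM per kilobase, followed by Pdk3 at 17.0 ± 1.11 and Pdk1 at 5.07 ± 0.26 (SD, n = 3 mice). Pdk4 ran from 4.42 to 37.6 CPM per kilobase in TG-, so that its place among the lower 3 differed between mice. In TG+ cortex Pdk2 remained the highest kinase at 77.4 ± 2.21 CPM per kilobase, and Pdk1 came second at 39.0 ± 3.67, above Pdk3 at 24.4 ± 1.01 and Pdk4 at 10.4 ± 4.98 (SD, n = 3 mice). On this length the order held in each of the 3 TG+ mice, but with the length behind the deposited RPKM Pdk4 (14.4) stood above Pdk3 (12.8) in mouse 43-75.

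Pdk1 made up 3.19 to 4.03% of the summed Pdk1 to Pdk4 level in TG- mice and 24.4 to 28.3% in TG+ mice. The mean share was 3.74 ± 0.48% in TG- and 25.8 ± 2.12% in TG+, a difference of 22.1 percentage points (exact two-sided permutation p = 0.1, the smallest that 3 against 3 allows). The share of Pdk2 was 62.2 to 79.0% in TG- and 50.5 to 52.4% in TG+, and that of Pdk3 was 11.3 to 13.3% and 15.0 to 16.8%. By reads without length scaling the Pdk3 share was 9.72% in TG- and 9.68% in TG+, with overlap (exact two-sided permutation p = 1). The share of Pdk4 overlapped, at 3.70 to 23.4% in TG- and 4.27 to 10.1% in TG+.

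Pdk2 led in TG+ per merged exons, per the length behind the deposited RPKM and per the longest transcript. Pdk1 led only without length scaling. By reads alone, Pdk1 exceeded Pdk2 in all 3 TG+ mice, by 1.37, 1.16 and 1.19 times in 43-29, 43-49 and 43-75, and Pdk1 made up 46.9 ± 2.89% of the kinase reads (SD, n = 3 mice). Per kilobase of exon, Pdk1 stood at 0.558, 0.473 and 0.483 times Pdk2 in the same mice, because its annotated exons cover 7779 bases against 3163 for Pdk2. In TG- the per-kilobase ratio was 0.0507 to 0.0523.

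**Figure D2:**
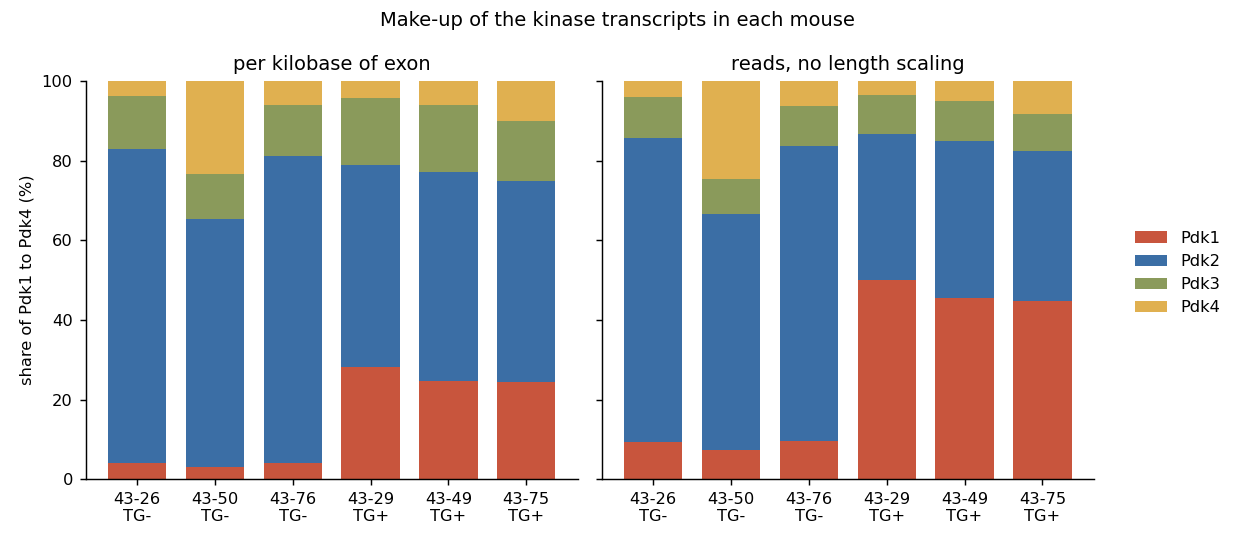
Share of Pdk1, Pdk2, Pdk3 and Pdk4 in their summed level (vertical axis, percent) in each of the 3 TG- and 3 TG+ mice, per kilobase of exon on the left and by reads without length scaling on the right. The Pdk1 part grew from 3.74 to 25.8% on the left, where Pdk2 remained the largest part, and mouse 43-50 has the largest Pdk4 part, 23.4%.

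The summed kinase level per kilobase did not separate the groups. It was 120, 161 and 131 CPM per kilobase in TG- mice 43-26, 43-50 and 43-76, and 152, 144 and 158 in TG+ mice 43-29, 43-49 and 43-75. Mouse 43-50 exceeded all TG+ mice, and the groups overlapped. The means were 137 ± 21.3 in TG- and 151 ± 7.10 in TG+ (SD, n = 3 mice each), a ratio of 1.10 (exact two-sided permutation p = 0.4). The groups also overlapped with the length behind the deposited RPKM (log2 ratio 0.04, exact two-sided permutation p = 0.8) and with the longest transcript (log2 ratio 0.18, exact two-sided permutation p = 0.2). They did not overlap by reads without length scaling, where the sums were 392 to 535 CPM in TG- and 608 to 669 CPM in TG+, a ratio of 1.43 (exact two-sided permutation p = 0.1), and without mouse 43-50 the log2 ratio per kilobase was 0.27 (exact two-sided permutation p = 0.1). The summed phosphatase level fell from 21.4 ± 1.99 to 14.5 ± 1.11 CPM per kilobase (SD, n = 3 mice each), a ratio of 0.677 (exact two-sided permutation p = 0.1), with no overlap. Pdp2 made up 94.6 to 95.5% of it in TG- and 89.7 to 90.4% in TG+, and the Pdp2 to Pdp1 ratio per kilobase was 17.4 to 21.2 in TG- against 8.70 to 9.43 in TG+.

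Kinase transcripts exceeded phosphatase transcripts in every mouse. The ratio of the summed levels was 5.57 to 8.17 in TG- and 10.2 to 10.8 in TG+. Its mean was 6.48 ± 1.47 in TG- and 10.4 ± 0.36 in TG+ (SD, n = 3 mice each), 1.61 times higher in TG+ (exact two-sided permutation p = 0.1). The fall of Pdp2 and the rise of Pdk1 both enter this ratio. By reads without length scaling the ratio was 2.11 times higher in TG+. These are ratios of mRNA levels and give no kinase activity.

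The substrate complex was compared with the enzymes that regulate it. All 6 of its listed genes had log2 fold changes at or below 0, with a median of -0.15 against 0.01 over all genes tested, and with library size as the only scaling, which moved the median of all genes by 0.12 on the log2 scale, 3 of the 6 turned positive. Dlat, the E2 transacetylase on which the kinases dock, stood at 166 to 170 CPM in TG- and 133 to 148 CPM in TG+ (log2 fold change -0.27, SE 0.06, adjusted p = 0.012 by edgeR). Dld, the shared E3 subunit, had a log2 fold change of -0.21 (SE 0.05, adjusted p = 0.021 by edgeR). Pdhx, the E3-binding protein, had a log2 fold change of -0.22 (SE 0.05, adjusted p = 0.019 by edgeR). These 3 passed 0.05 and were lower in all 3 TG+ mice, but their adjusted p was 0.12 to 0.18 with library size as the only scaling.

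Pdha1, the E1α subunit that the kinases phosphorylate, stood at 575 to 642 CPM in TG- and 554 to 565 CPM in TG+ (log2 fold change -0.09, SE 0.06, adjusted p = 0.28 by edgeR). Pdha1 overlaps Map3k15, which was at 225 ± 1.65 CPM in TG+ and 231 ± 10.2 CPM in TG- (SD, n = 3 mice each). Pdhb, the E1β subunit, had a log2 fold change of -0.08 (SE 0.05, adjusted p = 0.32 by edgeR). Pdha2, the testis form of E1α, was at 1.38 ± 0.10 CPM in TG+ and 1.39 ± 0.16 CPM in TG- (SD, n = 3 mice each).

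The other mitochondrial enzymes of this kind were lower or did not pass. Ppm1k, the phosphatase of the branched-chain ketoacid dehydrogenase, fell from 25.3 ± 1.42 to 18.7 ± 1.58 CPM (SD, n = 3 mice each; log2 fold change -0.43, SE 0.08, adjusted p = 0.0069 by edgeR). Its partner kinase Bckdk had a log2 fold change of -0.14 (SE 0.05, adjusted p = 0.070 by edgeR). Pdpr, the regulatory subunit of the pyruvate dehydrogenase phosphatase, had a log2 fold change of -0.20 (adjusted p = 0.063 by edgeR), and Pptc7, a mitochondrial phosphatase, of -0.15 (adjusted p = 0.22 by edgeR). Of these 4, Ppm1k passed an adjusted p below 0.05 by edgeR, and by DESeq2 Pdpr did as well (adjusted p = 0.033). Pdpk1, the cytosolic kinase that shares the abbreviation PDK1 and is no relative of Pdk1, was at 61.7 to 70.1 CPM in TG+ and 64.4 to 74.8 CPM in TG-.

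**Figure D3:**
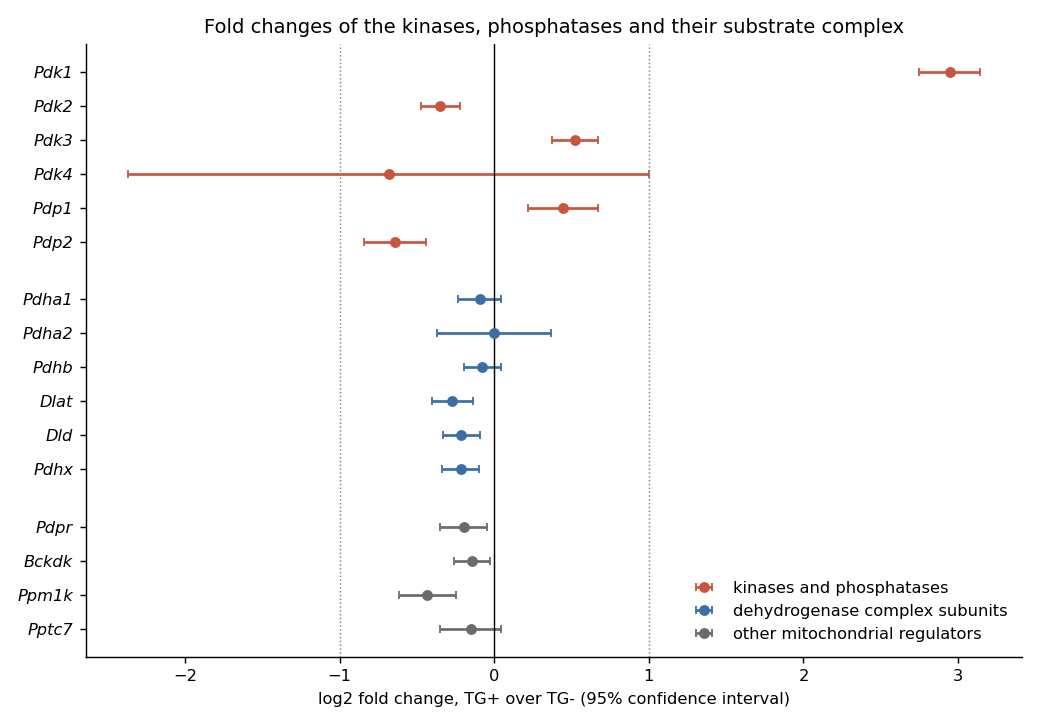
Log2 fold change, TG+ over TG-, with its 95% confidence interval (horizontal axis) for the 6 kinases and phosphatases, the 6 genes of the dehydrogenase complex and the 4 other mitochondrial regulators. Dotted lines mark a 2-fold change in either direction. Pdk1 at 2.94 lies alone on the right, the interval of Pdk4 spans 0, and the complex subunits lie between -0.27 and 0.

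Genes of the related dehydrogenase complexes, which the members are not known to regulate, were also lower. Of 6 genes of the branched-chain ketoacid and oxoglutarate dehydrogenases, 5 were lower at an adjusted p below 0.05, with a median log2 fold change of -0.44. Bckdhb, an E1 subunit of the branched-chain complex, fell from 33.8 to 22.7 CPM (log2 fold change -0.57, adjusted p = 0.00062 by edgeR). Ogdhl, a relative of oxoglutarate dehydrogenase, was called lower, at 4.83 to 7.18 CPM in TG- and 2.10 to 3.29 CPM in TG+ (log2 fold change -1.14, adjusted p = 0.0060 by edgeR). Dlst and Ogdh had the smallest changes, with log2 fold changes of -0.25 (adjusted p = 0.0097 by edgeR) and -0.16 (adjusted p = 0.058 by edgeR).

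Pyruvate has other routes than the dehydrogenase, and their genes were mixed. Of 16 genes of pyruvate entry and fates, 5 were higher and 2 lower at an adjusted p below 0.05, and 3 were called higher and 1 lower. Slc16a3, the lactate exporter MCT4, stood at 1.02 to 1.93 CPM in TG- and 98.1 to 150 CPM in TG+ (log2 fold change 6.52, adjusted p = 5.5e-06 by edgeR). Ldha, which turns pyruvate into lactate, rose from 278 ± 19.0 to 736 ± 91.8 CPM (SD, n = 3 mice each; log2 fold change 1.41, adjusted p = 1.0e-04 by edgeR). Gpt, the cytosolic alanine aminotransferase, fell from 40.1 to 17.6 CPM (log2 fold change -1.19, adjusted p = 0.00049 by edgeR), and Ldhd, the mitochondrial D-lactate dehydrogenase, had a log2 fold change of -0.55 (adjusted p = 0.0051 by edgeR).

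Pdk1 rose, and so did most of the listed HIF1 targets. Of 21 such genes, most of glucose metabolism with others such as Vegfa, Egln3, Bnip3, Ankrd37 and Car9, chosen without Pdk1 but with results of these data known, 20 were higher at an adjusted p below 0.05, 14 were called higher, and the median log2 fold change was 2.27. Pdk1 at 2.94 lay above that median. The list ran from Tpi1 at 0.43, a glycolytic isomerase, and Pfkfb4 at 0.45 to Ndufa4l2 at 5.98 and Hk2 at 6.16, the inducible hexokinase. Among 5 HIF subunits, Hif3a was called higher at 3.23 to 3.84 CPM in TG+ against 0.385 to 0.507 CPM in TG- (log2 fold change 3.02, adjusted p = 3.1e-05 by edgeR). Epas1 (HIF2α) had a log2 fold change of 0.37 (adjusted p = 0.0074 by edgeR), Hif1a of -0.12 (adjusted p = 0.34 by edgeR) and Arnt2 of -0.21 (adjusted p = 0.041 by edgeR). With library size as the only scaling, 0 of the 5 subunits were lower at an adjusted p below 0.05.

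The factors named for Pdk4 and Pdk2 were mixed. Of 13 such transcription factors and coactivators, 1 was higher and 4 lower at an adjusted p below 0.05, and with library size as the only scaling 2 were higher and 1 lower. Ppara, the fasting-responsive receptor, stood at 73.0, 97.4 and 116 CPM in the TG- mice and 58.0, 74.1 and 62.9 CPM in the TG+ mice (log2 fold change -0.55, adjusted p = 0.041 by edgeR), with overlap. Rxra, its partner, fell from 259 to 191 CPM (log2 fold change -0.44, adjusted p = 0.0014 by edgeR). Pparg rose from 1.17 to 6.19 CPM (log2 fold change 2.40, adjusted p = 2.4e-05 by edgeR), and Ppard had a log2 fold change of 0.34 (adjusted p = 0.057 by edgeR).

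Fatty acid oxidation targets of PPARα, the set with which Pdk4 is usually read, did not share a direction. Of 21 tested, 3 were higher and 3 lower at an adjusted p below 0.05, and the median log2 fold change was -0.10, or 0.03 with library size as the only scaling. Cyp4a14, a fatty acid hydroxylase, had a log2 fold change of 1.63 (adjusted p = 0.014 by edgeR). Cpt1a, the entry enzyme of mitochondrial oxidation, had a log2 fold change of -0.51 (adjusted p = 0.0028 by edgeR), and Ehhadh of -0.51 (adjusted p = 0.069 by edgeR).

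Mitochondrial genes and cell type markers moved between the groups beside the members. Of 10 genes of mitochondrial content found and tested, 6 were lower at an adjusted p below 0.05 (2 with library size as the only scaling), with a median log2 fold change of -0.21. Atp5b at -0.31 and Ndufs1 at -0.31 were the lowest, and Nrf1 at 0.00 and Vdac1 at 0.05 the highest. The 11 proximal tubule markers, all well expressed as the cortex label requires, summed to 35528 to 38007 CPM in TG- and 26942 to 30065 CPM in TG+, with a median log2 fold change of -0.46. Pdk2 at -0.35 and Pdp2 at -0.64 had the same sign. The summed levels of immune cell markers were 314 to 382 CPM in TG- and 1122 to 1782 CPM in TG+ (9 of 13 higher at an adjusted p below 0.05, median 1.17). Most of these sums came from Igkc, with means of 208 CPM in TG- and 1002 CPM in TG+, and Jchain, with 77.4 and 449 CPM. The endothelium markers summed to 293 to 386 and 499 to 537 CPM (6 of 6 higher, median 0.69), and the stroma markers to 163 to 194 and 247 to 330 CPM (5 of 7 higher, median 0.66). Pdk1 at 2.94, Pdk3 at 0.52 and Pdp1 at 0.44 had the same sign as these lists. As lists of both signs are given, any changed member shares its sign with some of them. The 11 markers of other nephron segments had a median of 0.06 and 1 of them, Aqp3 of the collecting duct, was lower at an adjusted p below 0.05, while with library size as the only scaling 3 were higher and that call was lost. In bulk cortex, fewer cells of a type and less RNA per cell cannot be told apart, and the part of cell make-up in the members' changes was not tested.

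The genes whose profile over the 12 libraries was closest to each member were found by the root mean square difference of centred log2 CPM, among 15709 genes. This distance contains the difference between the groups, so fold changes near that of the member follow from the choice. The kidneys of a mouse entered it as separate libraries. For Pdk1 they were Ero1l, an oxidase of the endoplasmic reticulum (0.080), Tmsb10, which binds actin (0.12), and Kif26a, a kinesin-like protein (0.13). Ero1l had a log2 fold change of 2.93 and Kif26a of 2.78. For Pdk2 they were Cisd1, an iron-sulfur protein of the outer mitochondrial membrane (0.033), Coq9 of coenzyme Q synthesis (0.034) and Bdh2, a dehydrogenase (0.034), with log2 fold changes of -0.33, -0.36 and -0.38. For Pdk3 they were Ppp1r13l (0.069), Rwdd2b (0.075) and Tbl2 (0.076). For Pdp1 they were Kdm1a, a histone demethylase (0.12), Gm5643 (0.12) and Samd9l (0.12), and for Pdp2 Cckar, the cholecystokinin A receptor (0.086), Rab11fip3 (0.086) and Ces1f, a carboxylesterase (0.090). The reads behind these profiles differ, from 12043 to 18065 per mouse for Pdk2 to 234 to 358 for Pdp1, and their part in the distances was not tested.

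**Figure D4:**
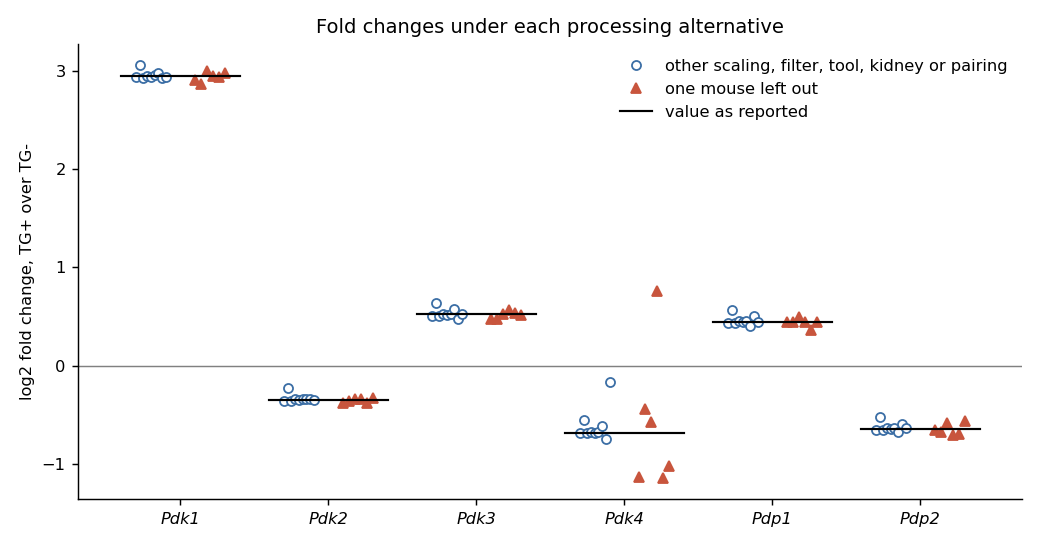
Log2 fold change of each member, TG+ over TG- (vertical axis), as reported (black line), under other scalings, filters, tools, kidneys and the pairing in the file's name (open circles), and with each mouse left out (triangles). Pdk1 ranged from 2.86 to 3.06 and the signs of Pdk2, Pdk3, Pdp1 and Pdp2 held throughout, while Pdk4 ran from -1.15 to 0.76, the last without mouse 43-50.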

How the data were processed

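Kidney cortex mRNA of 3 TG+ and 3 TG- mice was sequenced as 51-bp single-end reads, with 2 libraries per mouse. The authors deposited raw counts per Ensembl gene and RPKM values. The paper names the Tuxedo tools as the main software of its data analysis. The submitters' processing notes name genome build mm9, and the aligner version, annotation release and strand setting are not given in the sources used here. The table also holds columns of the authors' own comparisons, which were not used. Counts of both kidneys were summed per mouse and tested with edgeR 4.0.16 in R 4.3.3 (filterByExpr, TMM, quasi-likelihood), with only the 2 groups in the model. Rows naming no gene were not found. Exact permutation tests were two-sided and ran on mouse values. Lengths are merged exons of GENCODE M21. The length behind the RPKM the authors deposited was 1.85 times the merged exons for Pdk1 and 3.62 times for Pdp1, so it served only as an alternative. Of 199 genes given a 4-fold change in simulated counts, 196 were called, with 1 false call among 19236 genes. The simulated spread followed the trend over all genes, and smaller changes, such as those of the members other than Pdk1, were not simulated. The members and lists were chosen with earlier results of these data known. Named genes are the members, every gene of the complex and regulator lists, the 2 highest and 2 lowest log2 fold changes of each other list, and the 3 nearest profiles of members with an adjusted p below 0.05. A gene that this rule names is not reported here. Marker genes and genes of single mice were named after their values were seen. Intervals rest on the spread over 3 mice per group, which edgeR moderates with that of all genes tested. Pdp1 had the fewest reads. DESeq2 1.42.0 was an alternative.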

Additional observations from a re-analysis of the deposited data

How the results depend on the processing

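Pdk1, Pdk2, Pdk3, Pdp1 and Pdp2 kept their sign and their side of the study's threshold under all 15 alternatives (DESeq2, 3 other scalings, no filter, kidneys as separate libraries or alone, each mouse left out, and pairing). Pdk4 reversed without TG- mouse 43-50, to 0.76. Leaving out each mouse, log2 fold changes ran from 2.861 to 3.001 for Pdk1, -0.38 to -0.33 for Pdk2, 0.47 to 0.57 for Pdk3, -1.15 to 0.76 for Pdk4, 0.37 to 0.50 for Pdp1 and -0.70 to -0.56 for Pdp2. The highest adjusted p over the alternatives was 0.020 for Pdk2, 0.0094 for Pdk3, 0.0074 for Pdp2 and 0.10 for Pdp1, by edgeR. Without a minimum fold change, 3 members were higher and 2 lower at an adjusted p below 0.05, and 2 higher and 2 lower below 0.01. Without mouse 43-75 or 43-76, and with the first kidneys alone, Pdp1 exceeded 0.05 and the count of higher members at that threshold was 2. The difference in Pdk1 share was 19.0 percentage points with the length behind the deposited RPKM and 38.0 without length scaling, and without length scaling the log2 ratio between groups was 0.51 for the summed kinases, with no overlap, and 1.08 for the kinase to phosphatase ratio. These moves follow from the lengths used. With library size as the only scaling the log2 ratio of the summed kinases was 0.26 (exact permutation p = 0.1). The longest transcript as length was added after seeing the data and gave a share difference of 24.0 points. Leaving out each mouse, the share difference ran from 20.9 to 22.8 points, and the log2 ratios from 0.05 to 0.27 (kinases), -0.62 to -0.49 (phosphatases) and 0.59 to 0.89 (ratio). The deposited file's name lists the mouse numbers as 3 pairs, each of a TG+ and a TG- mouse, while the sample labels name no pairs. The correlation of deviations within the pairs was 0.32, 0.35 and -0.02. Mice of different pairs were not compared in this way, so these values cannot decide whether the mice are paired. The main fit left pairing out, and it entered as an alternative. With the replicate block Pdk4 was -0.16 and no member's call changed. Pdp1 had the fewest reads of the members, 234 to 358 per mouse, and the share of counting error in its spread was not tested.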

Other observations

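Mouse 43-50, the TG- animal with the high Pdk4, was compared with the other TG- mice after its values were seen, as a description without a test. Among 10281 genes reaching 10 CPM in a TG- mouse, Pdk4 was the 4th farthest above the mean of the other 2 (2.61 on the log2 scale), and 33 genes (0.321%) differed by more than 2-fold in either direction. Near it stood Cish and Socs2, feedback inhibitors of cytokine receptor signalling. Cish was at 35.0 CPM in 43-50 against 9.24 and 3.66 CPM in 43-26 and 43-76, and Socs2 at 25.8 against 8.77 and 6.75 CPM. Irs2, an adaptor of the insulin receptor, was at 91.3 against 36.0 and 27.5 CPM. Farthest below stood Bcl6, a transcriptional repressor, at 26.0 CPM against 31.3 and 175 CPM, which was low in 43-26 as well. Ighm, an immunoglobulin heavy chain, was farthest above, at 273 CPM against 20.2 and 9.72 CPM.

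The fatty acid oxidation list stood out in the same mouse. Of its 22 genes, 21 were highest in 43-50 among the TG- mice, where 35.9% of the 15710 genes with a mean of at least 1 CPM in both groups were (a floor that Ucp3 of the list does not reach), and 19 were lowest in 43-26, which also had the lowest Pdk4, where 35.2% of those genes were lowest. Ehhadh, a peroxisomal enzyme, was at 1191 CPM in 43-50 against 691 and 812 CPM, and Angptl4, an inhibitor of lipoprotein lipase, at 119 against 38.0 and 63.5 CPM. Among the TG+ mice, 19 of the 22 were lowest in 43-29, again the mouse with the lowest Pdk4 of its group, where 32.2% of those 15710 genes were lowest. In TG+, 11 of the 22 were highest in 43-49 (Pdk4 at 30.5 CPM), where 37.1% of the 15710 genes were, and 9 in 43-75 (Pdk4 at 56.2 CPM), where 28.8% were.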
